A study of Rattus norvegicus with 23 samples.

Results

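Chemokines, adhesion molecules and NF-kB genes were followed in rat kidney through 9 genes: the chemokines Ccl2, Ccl6, Cxcl10 and Cx3cl1, the cytokine Il34, the adhesion molecules Icam1 and Vcam1, and Nfkb1 and Nfkbia of the NF-kB pathway. They were chosen by gene symbol, with earlier results of these data known. They are 9 of the 14217 genes to which the array's annotation gave a symbol of their own. Each was read by 1 probe set, so no second probe set could be set beside it. In all, 23 kidney RNA samples of male rats on standard chow had been hybridised to Affymetrix arrays, 1 array per sample, at 4 months of age and 3 months after surgery. The groups were SBH/y rats left with 1 kidney by right uninephrectomy (6 arrays), SBH/y rats with 2 kidneys after a sham operation (6 arrays), SBN/y rats with 1 kidney after the same uninephrectomy (6 arrays) and sham-operated SBN/y rats with 2 kidneys (5 arrays). SBH/y and SBN/y are known as the hypertension-prone and the hypertension-resistant line of the Sabra rat, and proteinuria is named in the series' title. The kidneys were frozen after exsanguination under ether, and total RNA of the tissue was used. The design asks how the remaining kidney of each strain differed from that of sham-operated rats, and how the strains differed at each kidney number.

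Chemokines are small secreted proteins that guide leukocytes along a gradient, and each binds 1 or more receptors on the cells it attracts. ICAM-1 and VCAM-1 sit on activated endothelium and, in the kidney, also on tubular epithelium, where integrins of leukocytes bind them. IL-34 shares the receptor CSF1R with the growth factor CSF1 and keeps macrophages alive and dividing. Nfkb1 encodes the p105 precursor of the NF-kB subunit p50, and Nfkbia encodes the inhibitor that holds NF-kB in the cytoplasm until it is degraded. Genes for ICAM-1, VCAM-1, CCL2, CXCL10 and the inhibitor itself are textbook targets of NF-kB.

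The values are log2 signals after RMA, so a difference of 1 is a 2-fold difference, and levels are compared between groups for 1 probe set at a time. Over the arrays the 9 genes averaged 5.48 (Cxcl10) to 7.83 (Cx3cl1), above 61.3% to 89.4% of all probe sets. All 11 kidney tubule markers lay above the median of all values in every group, as a kidney sample should show. The median of all values was 4.66. The 3' minus 5' signal of the GAPDH control probes, a measure of RNA integrity, averaged 0.53 ± 0.11 in SBH/y with 1 kidney against 0.46 ± 0.06 in SBH/y with 2 kidneys, and 0.45 ± 0.04 in SBN/y with 1 kidney against 0.35 ± 0.03 in SBN/y with 2 kidneys (SD, n = 6, 6, 6 and 5). It moved with the groups, and its part in the results was tested only as a covariate. The log2 sum of 6 fat markers was 8.11 to 8.46 in SBH/y with 1 kidney against 8.18 to 8.56 with 2 kidneys, and 8.25 to 8.92 in SBN/y with 1 kidney against 8.33 to 9.25 with 2 kidneys.

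One array stood apart. Replicate 4 of SBN/y with 1 kidney was the highest of its group for 6 of the 9 genes and above its group's mean for 7. It had 6.26 for Ccl2, 6.61 for Ccl6, 6.02 for Cxcl10 and 7.82 for Nfkbia. The log2 summed signal of 16 myeloid markers was 12.44 on this array, against 11.89 to 12.05 on the other 5 of its group. Where a printed call, or a difference by over 1.5 times, turned on it, the value without it is also given.

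In SBH/y, 5 of the 9 genes rose after uninephrectomy and 0 fell: Ccl6, Cxcl10, Icam1, Il34 and Nfkb1 (limma, Benjamini-Hochberg adjusted p under 0.05 over all 31042 probe sets). By the same rule 3.06% of all probe sets were called higher and 5.04% in either direction. The 9 genes were chosen with earlier results known, so shares and medians set beside all probe sets are no test. The median difference of the 9 genes was 0.26, against -0.01 over all probe sets. In SBN/y, 0 of the 9 passed, where 0.168% of all probe sets did, and the median difference was 0.09 against 0.00. At an unadjusted p under 0.05 limma counted 7 of the 9 genes in SBH/y (15.6% of all probe sets) and 3 in SBN/y (7.62%). Beyond the sample names, nothing in the labels states that each array stands for its own animal, so a p-value here reflects sample-to-sample spread.

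**Figure D1:**
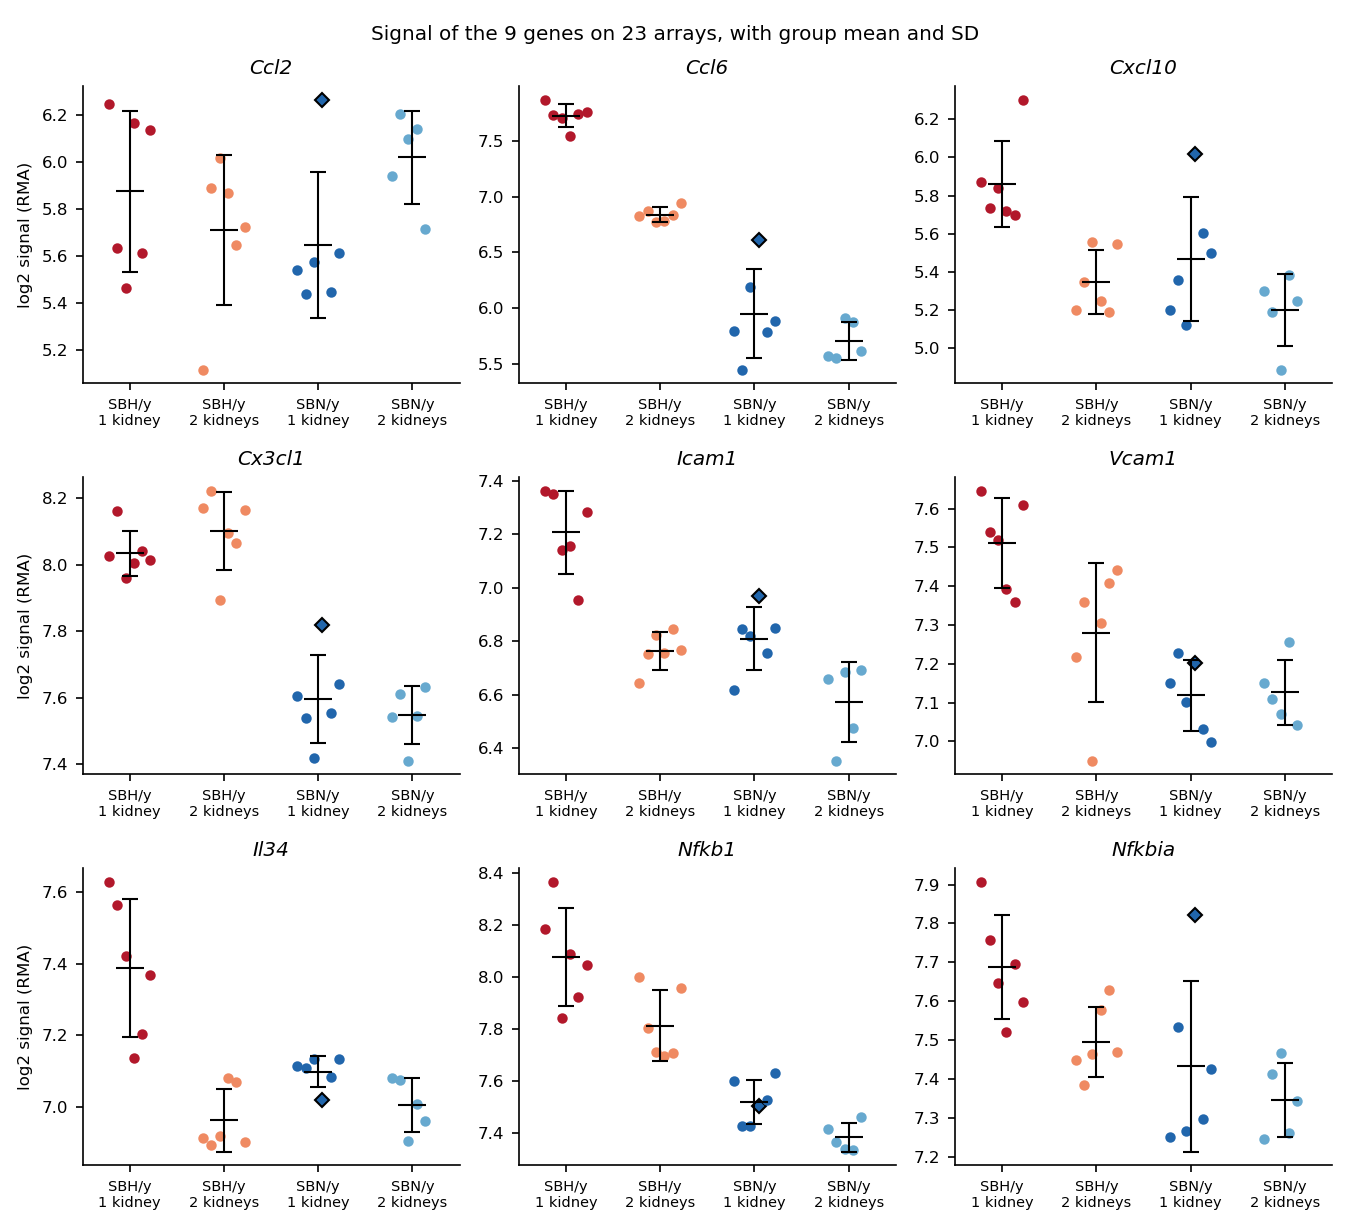
Log2 signal of each of the 9 genes (y axis, scale differing between panels) on each array, in the order SBH/y with 1 kidney, SBH/y with 2 kidneys, SBN/y with 1 kidney, SBN/y with 2 kidneys. Points are arrays, black bars are the group mean and SD, and the black-edged diamond is replicate 4 of SBN/y with 1 kidney. Ccl6 shows 3 separate levels, at 7.73 and 6.84 in SBH/y with 1 and 2 kidneys and at 6.61 or lower in SBN/y.

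The promoters of 7 of these genes, all that were found, are shown with letters like those that NF-kB is known to bind. Of the 7 genes, 4 rose in SBH/y after uninephrectomy, and Cx3cl1, Vcam1 and Nfkbia did not pass. RefSeq (assembly GRCr8) gave the 250 bases before and 50 after the start of 7 of the 9 genes, Ccl2 and Il34 not among them. The regions are chr10:68883317-68883616 on the minus strand for Ccl6, chr14:15988816-15989115 on the plus strand for Cxcl10, chr19:10242771-10243070 on the minus strand for Cx3cl1, chr8:27829595-27829894 on the plus strand for Icam1, chr2:206742734-206743033 on the minus strand for Vcam1, chr2:226805413-226805712 on the minus strand for Nfkb1 and chr6:78597023-78597322 on the minus strand for Nfkbia. Each runs 5′ to 3′ along its gene, and capitals mark matches to the motifs named after the sequences.
Ccl6: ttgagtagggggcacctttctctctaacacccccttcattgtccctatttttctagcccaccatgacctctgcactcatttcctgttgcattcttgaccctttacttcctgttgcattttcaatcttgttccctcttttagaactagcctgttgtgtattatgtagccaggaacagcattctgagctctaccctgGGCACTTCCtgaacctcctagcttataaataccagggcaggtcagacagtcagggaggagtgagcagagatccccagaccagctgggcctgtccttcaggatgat
Cxcl10: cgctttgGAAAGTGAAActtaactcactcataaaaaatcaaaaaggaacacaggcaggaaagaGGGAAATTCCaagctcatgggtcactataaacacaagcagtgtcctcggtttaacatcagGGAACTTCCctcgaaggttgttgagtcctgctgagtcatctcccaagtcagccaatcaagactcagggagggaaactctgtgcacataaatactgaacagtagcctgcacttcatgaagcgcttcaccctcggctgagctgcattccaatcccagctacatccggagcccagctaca
Cx3cl1: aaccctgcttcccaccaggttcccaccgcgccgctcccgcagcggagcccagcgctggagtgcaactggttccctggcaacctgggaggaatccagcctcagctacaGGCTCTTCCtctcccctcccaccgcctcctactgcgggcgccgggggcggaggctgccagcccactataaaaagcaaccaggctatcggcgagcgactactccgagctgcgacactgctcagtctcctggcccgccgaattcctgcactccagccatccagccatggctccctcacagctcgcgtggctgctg
Icam1: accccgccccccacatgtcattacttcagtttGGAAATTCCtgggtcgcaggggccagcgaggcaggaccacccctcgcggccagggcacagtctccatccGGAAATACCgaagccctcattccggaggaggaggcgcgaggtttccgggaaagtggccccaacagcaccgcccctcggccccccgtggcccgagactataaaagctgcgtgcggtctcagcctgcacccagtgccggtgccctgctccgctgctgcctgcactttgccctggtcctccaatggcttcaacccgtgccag
Vcam1: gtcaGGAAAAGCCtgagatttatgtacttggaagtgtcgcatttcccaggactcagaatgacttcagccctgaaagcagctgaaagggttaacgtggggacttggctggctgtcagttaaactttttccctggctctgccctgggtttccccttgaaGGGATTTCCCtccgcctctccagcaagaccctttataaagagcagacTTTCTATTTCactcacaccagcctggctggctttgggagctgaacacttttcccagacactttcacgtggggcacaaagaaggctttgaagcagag
Nfkb1: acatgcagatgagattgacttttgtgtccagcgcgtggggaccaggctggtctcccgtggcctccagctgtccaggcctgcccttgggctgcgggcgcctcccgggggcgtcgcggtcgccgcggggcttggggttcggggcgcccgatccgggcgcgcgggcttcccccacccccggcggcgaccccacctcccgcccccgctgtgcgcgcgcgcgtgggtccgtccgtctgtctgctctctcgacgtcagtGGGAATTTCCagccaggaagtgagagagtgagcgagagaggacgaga
Nfkbia: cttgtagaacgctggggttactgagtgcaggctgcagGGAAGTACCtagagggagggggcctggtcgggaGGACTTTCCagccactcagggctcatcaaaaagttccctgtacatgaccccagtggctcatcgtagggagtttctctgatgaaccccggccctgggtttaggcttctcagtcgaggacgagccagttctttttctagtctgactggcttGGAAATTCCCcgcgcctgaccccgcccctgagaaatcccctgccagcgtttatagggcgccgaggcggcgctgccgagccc
The motifs were searched on both strands, and were chosen with these sequences in view: the kappa B consensus, a shorter form GGNNNTTCC that can overlap it, and the core of the interferon-stimulated response element, a pair of GAAA repeats. The consensus was found in 4 of the 7 promoters, against 4.18% of all 33469 RefSeq promoters: Cxcl10 at -187, Vcam1 at -93, Nfkb1 at 4 and Nfkbia at -31, counted from the start to the leftmost base. After uninephrectomy in SBH/y, Cxcl10 and Nfkb1 of these 4 passed in limma, with differences of 0.515 and 0.26. Vcam1 and Nfkbia differed by 0.23 and 0.19 and missed the threshold (adjusted p = 0.0627 and 0.217). The shorter form was found in 7 of 7 promoters, against 18.3% of all, and it stands at -143 in Cx3cl1 and at -218 and -149 in Icam1. The interferon element was found in Cxcl10 at -243 and in Vcam1 at -46, against 3.92% of all. Since the motifs were so chosen and several of the genes are known NF-kB targets, these shares are no test. A match describes the letters and does not show binding.

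Ccl6, a rodent CC chemokine that attracts macrophages, showed the largest difference of the 9 genes in each strain comparison and in SBH/y after uninephrectomy. Its signal was 7.55, 7.73 and 7.87 (lowest, median and highest of 6) in SBH/y with 1 kidney, against 6.77, 6.83 and 6.95 in SBH/y with 2 kidneys. The SBN/y arrays had 5.45, 5.83 and 6.61 with 1 kidney, against 5.57, 5.55, 5.91, 5.87 and 5.62 on the 5 arrays with 2 kidneys. Every SBH/y array with 1 kidney lay above every SBH/y array with 2, and every SBH/y array lay above every SBN/y array. The SBH/y difference was 0.89 ± 0.12 (SE), or 1.85-fold, with an adjusted p of 2.20e-05. The SBN/y difference was 0.25 ± 0.12 (adjusted p = 0.681), and 0.11 without replicate 4 of the 1-kidney group. Ccl6 was 3.43-fold higher in SBH/y than in SBN/y with 1 kidney (adjusted p = 7.67e-12) and 2.20-fold higher with 2 kidneys (adjusted p = 1.47e-07).

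Myeloid markers moved with Ccl6. Their log2 summed signal was 12.72 to 13.02 in SBH/y with 1 kidney, against 12.25 to 12.41 in SBH/y with 2 kidneys. It was 11.89 to 12.44 in SBN/y with 1 kidney, against 11.86 to 11.95 in SBN/y with 2 kidneys. The groups thus stood in the same order as for Ccl6, and the highest SBN/y array was replicate 4 for both. All 16 markers were measured, 3 of them below the median of all values in every group, and 13 rose in SBH/y after uninephrectomy. Cd68 of macrophages, for example, differed by 0.67. The 3 that did not pass were Cd163 (0.08), Adgre1 (0.10) and Itgam (0.06). In SBN/y 0 of the 16 passed in limma, and 4 had an unadjusted p under 0.05. In whole tissue, more cells of a type and more RNA per cell cannot be told apart.

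**Figure D2:**
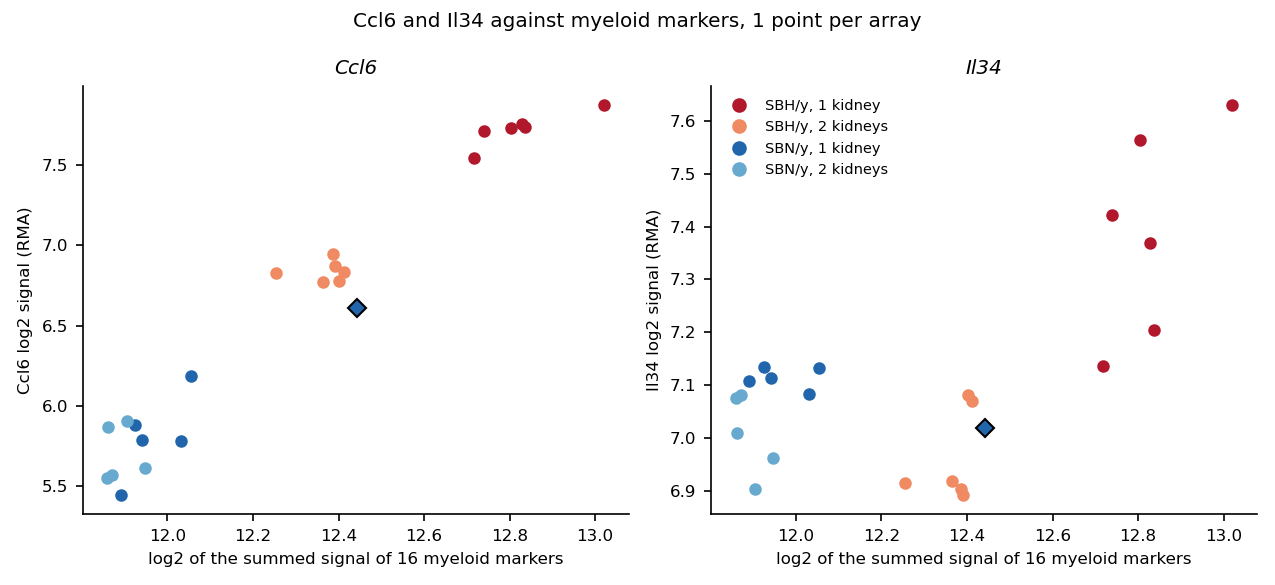
Log2 signal of Ccl6 (left) and Il34 (right) on the y axis against the log2 summed signal of 16 myeloid markers on the x axis, 1 point per array, coloured by group, with replicate 4 of SBN/y with 1 kidney as the black-edged diamond. That array, at 12.44, lies beside the SBH/y arrays with 2 kidneys (12.25 to 12.41) for the markers and for Ccl6 at 6.61. Il34 lies between 6.89 and 7.13 on the SBN/y arrays and the SBH/y arrays with 2 kidneys, over the whole range of the markers up to that point.

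Cxcl10, an interferon-induced chemokine that draws activated T cells through CXCR3, had its highest mean in SBH/y with 1 kidney. It had 5.70, 5.79 and 6.30 in SBH/y with 1 kidney, against 5.19, 5.30 and 5.55 in SBH/y with 2 kidneys. In SBN/y it had 5.12, 5.43 and 6.02 with 1 kidney, against 5.30, 5.19, 4.89, 5.38 and 5.25 with 2 kidneys. The SBH/y groups did not overlap, while the SBN/y groups overlapped. Cxcl10 rose 1.43-fold in SBH/y after uninephrectomy (adjusted p = 0.0102). In SBN/y the difference was 0.27 ± 0.13 (adjusted p = 0.647), and 0.16 without replicate 4. With 1 kidney it was higher in SBH/y than in SBN/y by 0.39 ± 0.12 (adjusted p = 0.0283), and by 0.50 without replicate 4 of SBN/y (adjusted p = 0.00158). That call was lost in 5 of 23 fits that each left out 1 array (adjusted p 0.0511 to 0.0944), when replicate 1, 2 or 3 of SBN/y or replicate 1 or 6 of SBH/y was dropped.

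Cx3cl1, the membrane-bound chemokine fractalkine, differed by strain and showed no difference with kidney number past the threshold. It had 7.96, 8.02 and 8.16 in SBH/y with 1 kidney, against 7.89, 8.13 and 8.22 in SBH/y with 2 kidneys. SBN/y arrays with 1 kidney had 7.42, 7.58 and 7.82, against 7.54, 7.61, 7.41, 7.54 and 7.63 with 2 kidneys. All SBH/y arrays lay above all SBN/y arrays, and the groups within a strain overlapped. The strain difference was 1.36-fold with 1 kidney (0.44 ± 0.06, adjusted p = 9.79e-06) and 1.47-fold with 2 kidneys (0.55 ± 0.07, adjusted p = 7.80e-07). The uninephrectomy difference in SBH/y was -0.07, with a 95% interval of -0.20 to 0.06.

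Ccl2, the monocyte chemoattractant MCP-1, passed in 0 comparisons with limma, with an unadjusted p under 0.05 in SBN/y after uninephrectomy (0.0277) and in the test of a strain difference in that response (0.0219). It had 5.46, 5.88 and 6.24 in SBH/y with 1 kidney, against 5.12, 5.80 and 6.01 in SBH/y with 2 kidneys. Among SBN/y arrays it had 5.44, 5.56 and 6.26 with 1 kidney, against 5.94, 6.20, 6.10, 6.14 and 5.71 with 2 kidneys. The highest value among the SBN/y arrays with 1 kidney was replicate 4, and the other 5 lay below every SBN/y array with 2 kidneys. The differences after uninephrectomy were 0.17 ± 0.15 in SBH/y (adjusted p = 0.692) and -0.37 ± 0.16 in SBN/y (adjusted p = 0.557), or -0.50 ± 0.15 in SBN/y without replicate 4 (adjusted p = 0.223). SBH/y differed from SBN/y by 0.23 ± 0.15 with 1 kidney (adjusted p = 0.412), or 0.35 without replicate 4 of SBN/y (adjusted p = 0.113), and by -0.31 ± 0.16 with 2 kidneys (adjusted p = 0.299). Group SDs of Ccl2 were 0.20 to 0.34, wider than those of Cx3cl1 at 0.07 to 0.13.

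The mean of Il34 was 7.39 in SBH/y with 1 kidney, and 6.96 to 7.10 in the other groups. It had 7.14, 7.40 and 7.63 in that group, against 6.89, 6.92 and 7.08 in SBH/y with 2 kidneys. Its SBN/y values were 7.02, 7.11 and 7.13 with 1 kidney, against 7.08, 7.07, 6.90, 7.01 and 6.96 with 2 kidneys. The lowest SBH/y array with 1 kidney was above all 17 others, the nearest at 7.13 against 7.14. Il34 rose 1.34-fold in SBH/y after uninephrectomy (0.42 ± 0.07, adjusted p = 0.000217). It differed by 0.09 ± 0.07 in SBN/y (adjusted p = 0.869), where 5 of the 6 arrays with 1 kidney lay above all 5 with 2. With 1 kidney it was 1.22-fold higher in SBH/y than in SBN/y (adjusted p = 0.00346), and with 2 kidneys the difference was -0.04 ± 0.07 (adjusted p = 0.839). Its receptor gene Csf1r, itself 1 of the 16 myeloid markers, had 6.84 ± 0.19 in SBH/y with 1 kidney against 6.39 ± 0.11 with 2 kidneys (SD, n = 6 each) and rose by 0.45 ± 0.07 (adjusted p = 0.000219). Csf1, the other ligand of that receptor, differed by -0.10 (adjusted p = 0.731). Ptprz1, listed with the same axis, also rose in SBH/y, by 0.47 ± 0.07 (adjusted p = 0.000144), at a dim 3.59 against 3.11. Its second, dimmer probe set differed by 0.02 (adjusted p = 0.942).

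Icam1, which binds the leukocyte integrin LFA-1, had 6.95, 7.22 and 7.36 in SBH/y with 1 kidney, against 6.64, 6.76 and 6.85 in SBH/y with 2 kidneys. SBN/y arrays gave 6.62, 6.83 and 6.97 with 1 kidney, against 6.66, 6.35, 6.68, 6.47 and 6.69 with 2 kidneys. The SBH/y groups did not overlap, and in SBN/y 5 of the 6 arrays with 1 kidney lay above all 5 with 2. Icam1 rose 1.36-fold in SBH/y (0.44 ± 0.07, adjusted p = 0.000261). In SBN/y the difference was 0.24 ± 0.08, with an unadjusted p of 0.00439 and an adjusted p of 0.316. With 1 kidney Icam1 was higher in SBH/y than in SBN/y by 0.40 ± 0.07 (adjusted p = 0.000215), and with 2 kidneys the difference was 0.19 ± 0.08 (adjusted p = 0.135).

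Vcam1, the ligand of the integrin VLA-4, had 7.36, 7.53 and 7.65 in SBH/y with 1 kidney, against 6.95, 7.33 and 7.44 in SBH/y with 2 kidneys. In SBN/y it had 7.0, 7.13 and 7.23 with 1 kidney, against 7.15, 7.11, 7.07, 7.26 and 7.04 with 2 kidneys. SBH/y arrays with 1 kidney stood above every SBN/y array, and overlapped with SBH/y arrays with 2 kidneys. With 1 kidney the strain difference was 0.39 ± 0.07, or 1.31-fold (adjusted p = 0.000225). The uninephrectomy difference in SBH/y, 0.23 ± 0.07, missed the threshold (adjusted p = 0.0627), but passed in 4 of the alternative fits (adjusted p 0.0366 to 0.0411) and without replicate 5 or 6 of SBH/y with 2 kidneys or replicate 5 of SBH/y with 1 kidney (adjusted p 0.0335 to 0.0487). In SBN/y it was -0.01 ± 0.08, and -0.02 without replicate 4. With 2 kidneys the strain difference was 0.15 ± 0.08 (adjusted p = 0.261), and it passed without replicate 3 of SBH/y (0.22, adjusted p = 0.0328). The log2 sum of the 9 measured endothelial markers was 10.67 to 10.76 in SBH/y with 1 kidney against 10.78 to 10.95 with 2 kidneys. Of these markers, 0 rose and 2 fell in limma. In SBN/y the sum was 10.755 to 10.795 with 1 kidney against 10.867 to 10.936 with 2 kidneys, and 0 markers passed. Their part in the Vcam1 values was not tested.

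Nfkb1 had 7.84, 8.07 and 8.37 in SBH/y with 1 kidney, against 7.70, 7.76 and 8.0 in SBH/y with 2 kidneys. Its SBN/y values were 7.43, 7.52 and 7.63 with 1 kidney, against 7.42, 7.37, 7.34, 7.33 and 7.46 with 2 kidneys. All SBH/y arrays were above all SBN/y arrays, while the groups within a strain overlapped. The strain difference was 1.47-fold with 1 kidney (0.56 ± 0.07, adjusted p = 2.37e-06) and 1.35-fold with 2 kidneys (0.43 ± 0.08, adjusted p = 0.000266). The rise in SBH/y after uninephrectomy was 1.20-fold (0.26 ± 0.07, adjusted p = 0.0325). It missed the threshold in 7 of the 23 fits without 1 array (adjusted p 0.0565 to 0.0993: replicates 2, 3, 4 and 5 of SBH/y with 2 kidneys, and 1, 2 and 4 with 1 kidney), and with the GAPDH signal as a covariate (0.19, adjusted p = 0.192). In SBN/y the difference was 0.14 ± 0.08 (adjusted p = 0.754). The kappa B match of its promoter lies just after the start, as shown in its sequence.

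Nfkbia had 7.52, 7.67 and 7.91 in SBH/y with 1 kidney, against 7.38, 7.47 and 7.63 in SBH/y with 2 kidneys. SBN/y arrays gave 7.25, 7.36 and 7.82 with 1 kidney, against 7.25, 7.41, 7.47, 7.26 and 7.34 with 2 kidneys. Groups next to each other in level overlapped, and the SBN/y array at 7.82 was replicate 4. The differences after uninephrectomy were 0.19 ± 0.08 in SBH/y (adjusted p = 0.217) and 0.09 ± 0.08 in SBN/y (adjusted p = 0.913), or 0.01 in SBN/y without replicate 4 (adjusted p = 0.991). With 1 kidney Nfkbia was higher in SBH/y than in SBN/y by 0.26 ± 0.08 (adjusted p = 0.0324), and by 0.33 without replicate 4 of SBN/y (adjusted p = 0.00120). That call was lost in 6 of the 23 fits without 1 array (adjusted p 0.0548 to 0.104), when replicate 1, 3, 5 or 6 of SBN/y or replicate 1 or 2 of SBH/y was dropped, and with the GAPDH signal as a covariate (0.27, adjusted p = 0.0505).

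Between the strains, 8 of the 9 genes were higher in SBH/y than in SBN/y with 1 kidney, Ccl2 being the exception, where limma called 7.55% of all probe sets higher. With 2 kidneys, Ccl6, Cx3cl1 and Nfkb1 were higher in SBH/y (4.32% of probe sets). The median difference of the 9 genes was 0.39 with 1 kidney and 0.15 with 2 kidneys, against -0.01 and 0.00 over all probe sets. Every SBH/y array lay above every SBN/y array for 5 genes with 1 kidney (3.93% of probe sets) and for 3 with 2 kidneys (3.73%). In SBH/y every array with 1 kidney lay above every array with 2 kidneys for 4 genes (1.81%). These comparisons share groups, so their values are set side by side and not counted as separate evidence. As the 9 genes were chosen with earlier results known, the shares are no test here either.

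**Figure D3:**
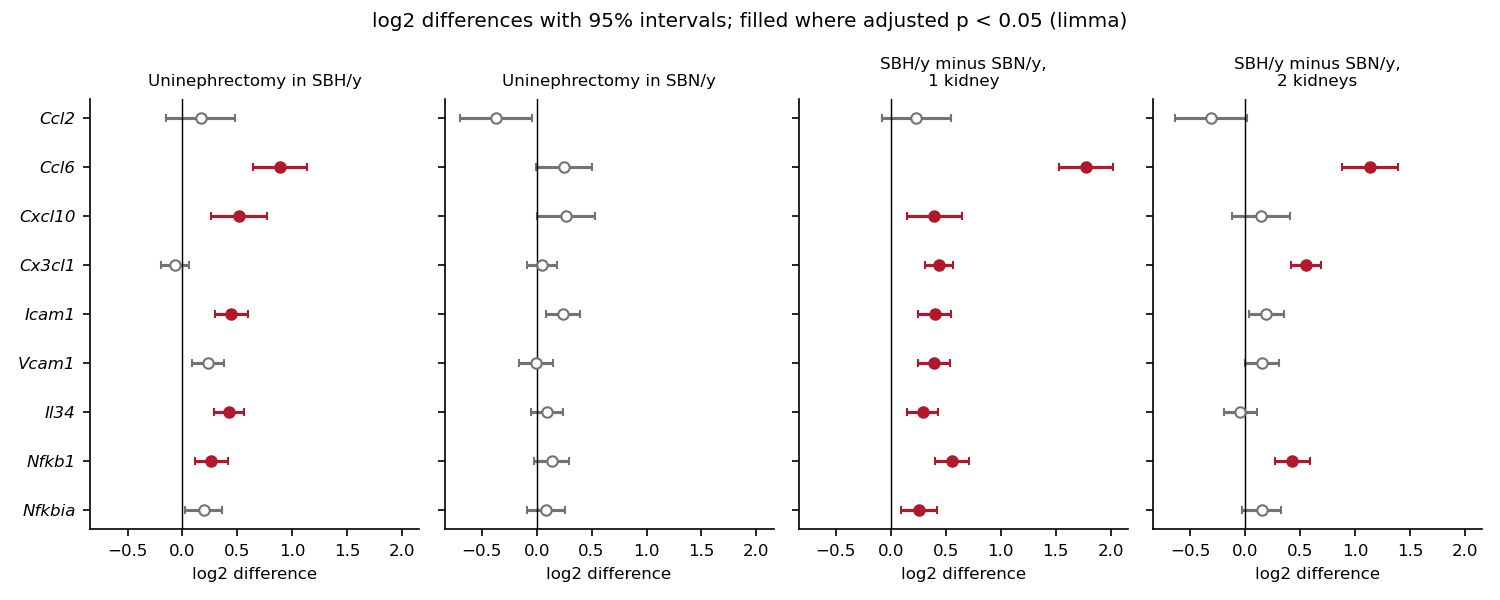
Log2 difference (x axis) of each gene with its 95% interval from limma, in 4 comparisons: 1 kidney minus 2 kidneys in SBH/y and in SBN/y, and SBH/y minus SBN/y with 1 and with 2 kidneys. Filled red points have an adjusted p under 0.05. In SBN/y after uninephrectomy 0 points are filled, and Ccl6 reaches 1.78 and 1.14 in the strain comparisons.

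Whether the response to uninephrectomy differed between the strains was tested as an interaction, SBH/y response minus SBN/y response. In limma 0 of the 9 genes passed (0.254% of probe sets did), and 4 had an unadjusted p under 0.05 (8.06% of probe sets). Ccl6 had the smallest p of the 9, with 0.64 ± 0.17 (adjusted p = 0.133), and Il34 followed with 0.33 ± 0.10 (adjusted p = 0.216). Without replicate 4 of SBN/y with 1 kidney the Ccl6 interaction was 0.77 ± 0.13 and passed (adjusted p = 0.00392). For Icam1 it was 0.21 ± 0.11 (adjusted p = 0.650) and for Cxcl10 0.25 ± 0.18 (adjusted p = 0.804). The rise of these genes past the threshold in SBH/y and not in SBN/y was therefore not shown to differ between the strains.

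With the myeloid marker sum as a covariate, chosen after seeing the data, 0 of the 9 genes passed in limma after uninephrectomy in SBH/y or between strains with 1 kidney, and 2 and 4 had an unadjusted p under 0.05. Of all 31042 probe sets only 78 and 376 passed in these comparisons. Without the covariate 1563 passed in SBH/y, and between strains with 1 kidney 2345 were called higher alone. The lost calls are therefore not particular to the 9 genes. The values after uninephrectomy in SBH/y were then 0.22 for Ccl6, 0.07 for Cxcl10, 0.22 for Icam1, 0.37 for Il34 and 0.27 for Nfkb1. By construction this covariate also takes up differences between groups, since the ranges of the marker sum in SBH/y with 1 kidney and SBH/y with 2 kidneys do not overlap. Lymphocyte markers moved too: the log2 sum of the 10 measured was 7.97 to 8.68 in SBH/y with 1 kidney against 7.55 to 7.66 in SBH/y with 2 kidneys, and 4 of 10 rose. Podocyte markers ran the other way: the log2 sum of the 5 measured was 9.24 to 9.50 in SBH/y with 1 kidney against 9.51 to 9.78 with 2 kidneys, and 3 of 5 fell. In SBN/y their sum was 9.47 to 9.64 with 1 kidney against 9.57 to 9.80 with 2 kidneys, and 0 of 5 passed. With 1 kidney, the log2 sum of 4 red blood cell markers was 10.85 to 11.47 in SBH/y against 11.51 to 11.99 in SBN/y, and 3 of 4 were lower. The part of these markers in the results was not tested.

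Of 125 other genes of these pathways measured, 24 passed in SBH/y after uninephrectomy, or 19.2%, against 5.04% of all probe sets. The lists were chosen with earlier results of these data known, and all probe sets include those without a symbol. The shares are therefore set side by side and are no test of the pathways. Of 17 chemokine receptors measured, 3 rose in SBH/y after uninephrectomy and 0 fell: Cxcr4 by 0.58 ± 0.11 (adjusted p = 0.00179), Ccr1 by 0.32 (adjusted p = 0.0102) and Cxcr3, the receptor of CXCL10, by 0.32 ± 0.08 (adjusted p = 0.0147). Cxcr3 was dim, at 4.32 in SBH/y with 1 kidney against 4.01 in SBH/y with 2 kidneys, and so was Ccr1, at 3.35 against 3.03 in the same groups, all below the median of all values. The receptors of CCL2 and fractalkine did not pass, with 0.25 for Ccr2 (adjusted p = 0.0861) and 0.15 for Cx3cr1 (adjusted p = 0.434). Of 27 other chemokines, 5 rose and 0 fell, among them the lymphoid tissue chemokines Ccl19 (0.62 ± 0.11, adjusted p = 0.000581) and Ccl21 (0.66 ± 0.12, adjusted p = 0.000656), Pf4 of platelets (0.53 ± 0.09) and Cxcl16 (0.32 ± 0.05). The median over these 27 was 0.02.

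Of 16 other leukocyte adhesion genes, 3 rose in SBH/y after uninephrectomy: Cd44, a receptor for hyaluronan, by 0.82 ± 0.11 (adjusted p = 1.53e-05), and Itgal and Itgb2, the chains of LFA-1 that bind ICAM-1, by 0.33 and 0.36 (adjusted p = 0.00701 and 0.0103). Cd44 was the 1 gene of these pathway lists with an interaction past the threshold, 0.83 ± 0.16 (adjusted p = 0.0119). It averaged 6.53 ± 0.34 in SBH/y with 1 kidney against 5.71 ± 0.11 with 2 kidneys, and 5.45 ± 0.14 in SBN/y with 1 kidney against 5.45 ± 0.12 with 2 kidneys. Its second probe set gave an interaction of 0.75 that did not pass (adjusted p = 0.104). The endothelial selectin Sele, often described beside Icam1 and Vcam1, was near the floor of the array, at 2.34 in SBH/y with 1 kidney against 2.31 with 2 kidneys.

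In the NF-kB pathway, 3 of 19 other subunits, inhibitors and kinases rose in SBH/y after uninephrectomy: Birc3, a ubiquitin ligase of TNF receptor signalling (0.72 ± 0.11, adjusted p = 0.000130), Nfkb2, the p100 precursor (0.38 ± 0.07, adjusted p = 0.00216), and Tnfaip3, which encodes the inhibitor A20 (0.54 ± 0.11, adjusted p = 0.00255). Rela, the partner of p50, differed by 0.07 (adjusted p = 0.673). Of 17 genes for inputs, 1 rose, the TNF receptor gene Tnfrsf1a (0.34 ± 0.07, adjusted p = 0.00151), while Tnf itself differed by 0.01 (adjusted p = 0.982) at 3.70 in SBH/y with 1 kidney against 3.69 with 2 kidneys. Of 14 other known targets, 5 rose, with Cd83 (0.62 ± 0.08, adjusted p = 8.37e-06), Irf1 (0.48, adjusted p = 0.00414) and Ier3 (0.46, adjusted p = 0.0125) among them. The matrix protease gene Mmp9 fell by 0.52 (adjusted p = 0.00678) at a dim level, and its second probe set did not pass (-0.23, adjusted p = 0.183). In SBN/y after uninephrectomy 0 of the 125 genes passed in limma, and 15 had an unadjusted p under 0.05.

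**Figure D4:**
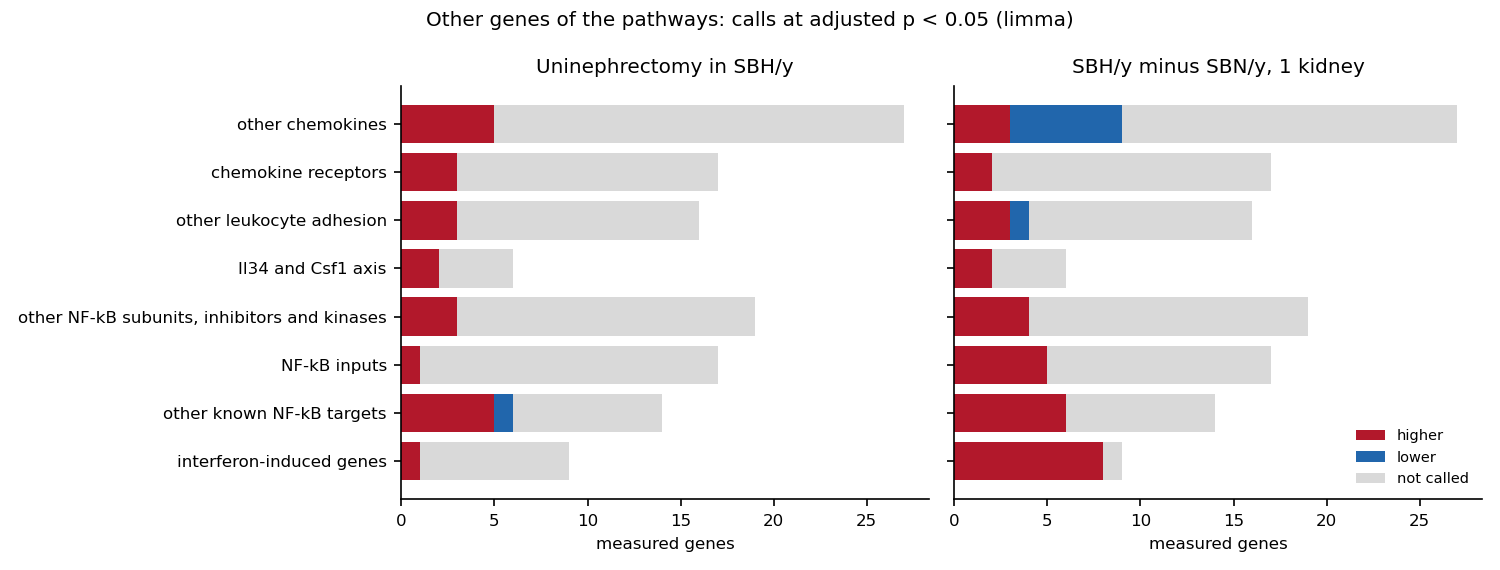
Number of measured genes (x axis) in each list of other pathway genes that were called higher (red), lower (blue) or not called (grey) at an adjusted p under 0.05 in limma, for uninephrectomy in SBH/y (left) and for SBH/y minus SBN/y with 1 kidney (right). Of 27 other chemokines 5 rose on the left, and 3 were higher and 6 lower on the right, while 8 of 9 interferon-induced genes were higher on the right.

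Within groups the 9 genes were weakly to moderately correlated. Over the deviations from group means on 23 arrays, the closest pair was Cx3cl1 and Nfkb1 at r = 0.53 (Pearson) and rho = 0.59 (Spearman), and the lowest r was -0.12 for Ccl2 and Nfkb1. These correlations describe arrays that share a normalization, and no p is given. The partners named next were picked as the highest r among all named genes, which by itself raises r. Among these genes, the deviations of Icam1 were most like those of Ccl19, with an r of 0.82 (rho 0.84). Those of Il34 were most like Chrd (0.76, rho 0.74), and those of Nfkb1 most like Golga2 (0.83, rho 0.84). The genes most like Ccl6 were RT1-Da and RT1-Db1, which encode MHC class II chains, with r of 0.83 and 0.82, but 0.70 and 0.66 without replicate 4 of SBN/y with 1 kidney. For Ccl2 they were Cmtm7 (0.81) and Lgals1 (0.80), for Cx3cl1 Trim25 (0.84), for Vcam1 Zfp800 (0.82), for Cxcl10 Fadd (0.77) and for Nfkbia Ctsz (0.78, rho 0.57). Without that array, r was 0.65 for Cxcl10 and Fadd and 0.63 for Nfkbia and Ctsz.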

How the data were processed

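Kidney RNA of male rats was measured in 23 samples on Affymetrix arrays, 1 per sample. The deposited values are log2 signals, 1 per probe set and array, made by the authors with the tools GCOS and RMA, which the submitters' processing notes name without their order. Tool versions are not given in the sources used here. RMA is known to equalise the distributions of the arrays, which hides any change in total mRNA. Batches of arrays, such as scan days, are not known here. The number of arrays limits the precision.

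Of 31099 probe sets, 57 controls were left out and 31042 tested, of which 20826 had 1 gene symbol, 436 several and 9780 none. Only those with 1 symbol were named, and 20758 of these probe sets were found by gene identifier in the RefSeq annotation of GRCr8. Where a gene had several probe sets, the one with the highest mean was used.

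All 4 group means were fitted together in limma 3.58.1 (R 4.3.3), two-sided, with Benjamini-Hochberg adjustment over the probe sets of a contrast and a threshold of 0.05. Errors of differences are standard errors unless SD is given. On simulated data for uninephrectomy in SBH/y, 97 of 100 probe sets with a change of 0.5 log2 and 100 of 100 with 1 log2 were recovered, with 12 false calls over 31042 probe sets. These counts hold for the simulated spread. In the data the SE of this comparison ran from 0.06 for Cx3cl1 to 0.15 for Ccl2.

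The 9 genes and the gene lists were chosen with earlier results of these data known. From each list up to 4 genes with the smallest p past the threshold were taken for uninephrectomy in SBH/y and up to 2 for other contrasts, and for each of the 9 genes the 3 genes most like it. Genes named beside these, such as receptors, Rela, Tnf, Csf1 and Sele, and the markers, were picked for their known role and after their values were seen.

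Alternatives were a replicate block, a GAPDH covariate, leaving out each array, leaving out dim probe sets, 1 probe set per gene, a fit of only the compared groups, a robust trended variance and quantile normalization once more. Fits without the 3 arrays of highest fat marker signal and with a myeloid marker covariate were chosen after seeing the data.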

Additional observations from a re-analysis of the deposited data

Results flagged for a closer look

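Of 36 sets of values, 1 per gene and group, 2 had a sample far from the others; chance gives about 1 such set in 20. Ccl2 was 6.26 on replicate 4 of SBN/y with 1 kidney, where the other 5 arrays lay between 5.44 and 5.61. Without that array the group's mean was 5.52 ± 0.08 (SD, n = 5). Cxcl10 was 6.30 on replicate 6 of SBH/y with 1 kidney, against a group median of 5.79. The rise of Cxcl10 in SBH/y after uninephrectomy passed in limma in all 23 fits that left out 1 array, this one included.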

How the results depend on the processing

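Of the 9 genes, 4 to 6 passed after uninephrectomy in SBH/y, 0 in SBN/y, 6 to 8 between strains with 1 kidney and 3 between strains with 2 kidneys, under each alternative other than the myeloid covariate and single arrays left out. With the myeloid marker sum as a covariate 0 of the 9 passed in SBH/y and 0 between strains with 1 kidney. Between strains with 2 kidneys 1 passed, which was Ccl2 at -1.02 (adjusted p = 0.0135, limma). Of all probe sets, 78, 376 and 807 passed with this covariate in these comparisons, in that order, against 1563 in SBH/y without it. The lost calls in SBH/y are therefore not particular to the 9 genes. With 1 kidney, Cxcl10 then turned to -0.36 and Nfkbia to -0.38 (adjusted p = 0.934 and 0.557); since the covariate differs between groups, it takes up group differences by construction. With each array left out in turn the counts were 4 to 6, 0 to 0, 0 to 1 for the interaction, 6 to 8 with 1 kidney and 3 to 4 with 2 kidneys. The 1 interaction was Ccl6 without replicate 4 of SBN/y with 1 kidney. Ccl6, Cxcl10, Icam1 and Il34 passed in SBH/y in 23 of 23 such fits.

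The groups share replicate numbers, and the labels do not say whether these pair samples. Deviations of same-numbered arrays had a median correlation of 0.04 (-0.27 to 0.26 over 33 pairs), against -0.01 for different numbers in different groups. Such correlations show no clear pairing but cannot exclude one. With the replicate block the counts were 5, 0, 0 for the interaction, 7 with 1 kidney and 3 with 2 kidneys, Nfkbia being the call lost with 1 kidney (adjusted p = 0.0566). With only the groups compared, Nfkb1 in SBH/y (adjusted p = 0.128) and Cxcl10 and Nfkbia with 1 kidney (0.0631 and 0.0877) missed the threshold; without 3 arrays of high fat marker signal, all SBN/y with 2 kidneys, Nfkb1 in SBH/y did (0.0508). The next probe set of each gene was not run, since each has 1. The cause of these changes was not tested.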

Other observations

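Some other chemokines were lower in SBH/y than in SBN/y. Pf4 averaged 5.36 ± 0.14 in SBH/y and 6.17 ± 0.13 in SBN/y with 1 kidney (SD, n = 6 each), a difference of -0.80 ± 0.09 (SE, adjusted p = 1.96e-07, limma). With 2 kidneys it differed by -1.25 ± 0.10 (SE). Cxcl14 differed by -0.92 with 1 kidney and -0.90 with 2 kidneys, but its dimmer second probe set by -0.04 and -0.11. Of 27 other chemokines measured, 3 were higher and 6 lower in SBH/y with 1 kidney, and 3 were higher and 5 lower with 2 kidneys.

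Interferon-induced genes, the class to which Cxcl10 belongs, were higher in SBH/y than in SBN/y for 8 of 9 measured with 1 kidney and 6 of 9 with 2 kidneys, where 7.55% and 4.32% of all probe sets were. Isg15 differed by 0.77 ± 0.09 and Mx1 by 0.78 ± 0.14 with 1 kidney. After uninephrectomy in SBH/y only Isg15 of the 9 passed (0.35, adjusted p = 0.0256, limma). Itgax, an integrin of dendritic cells and macrophages, was higher in SBH/y by 1.19 ± 0.10 with 1 kidney and by 0.91 ± 0.11 with 2 kidneys.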
